A study of Mus musculus with 15 samples.

Results

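The genes described here are 10 of the protein genes of the mouse mitochondrial genome: ND1, ND2, ND3, ND4 and ND5 of respiratory complex I, CYTB of complex III, COX1, COX2 and COX3 of complex IV, and ATP6 of complex V. They were taken as the rows of the deposited expression table that carry those symbols. All 10 were present among its 26595 genes, and all 10 passed the filter on low values that left 17030 genes for testing. RNA had been sequenced from the striatum and the cerebral cortex of male C57Bl/6 mice aged 5 months. The knockout mice (KO) were labelled SLC1a4 -/- and lack both copies of the gene of ASCT1, a transporter of neutral amino acids, while the other mice were wild type (WT). The 15 libraries comprised 3 of KO striatum, 4 of WT striatum, 4 of KO cortex and 4 of WT cortex. The labels say neither which part of Slc1a4 was deleted nor whether the libraries of a group came from separate animals.

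The mitochondrial genome is a small circle present in many copies per cell. Its protein genes encode core membrane subunits of the respiratory chain and ATP synthase, and the remaining subunits come from nuclear genes and are imported. The heavy strand is transcribed as a long precursor that is cut at the tRNAs between the genes, so levels of the individual mRNAs depend on processing and stability as well as on transcription. Neurons depend on oxidative phosphorylation, and mitochondrial RNA is abundant in brain. Fragments of the mitochondrial genome have also been copied into nuclear chromosomes during evolution, and such copies can share sequence with the mitochondrial genes.

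Libraries held 22990233 to 30276815 counted reads. The deposited values are normalized counts, that is, reads per gene divided by 1 factor per library. Differences were fitted with limma on log2(normalized count + 1) over all 15 libraries, and a gene was called where its p adjusted over all tested genes (Benjamini-Hochberg) was under 0.05. Slc1a4 itself was measured at 158 to 344 normalized counts in KO striatum against 1237 to 1726 in WT striatum, and at 249 to 308 in KO cortex against 1494 to 1797 in WT cortex, so no library went against its genotype label. The summed level of 15 markers of striatal projection neurons was 59130 to 238977 normalized counts in striatum libraries and 14985 to 30510 in cortex libraries. The summed level of 15 markers of cortical excitatory neurons was 22420 to 29013 in striatum libraries and 71869 to 78642 in cortex libraries. Choroid plexus transcripts stood apart in KO striatum replicate 4, at 158351 for 20 summed markers, and in WT striatum replicate 5, at 231488, while the other striatum libraries lay between 10308 and 20490. The summed level of 10 markers of the neighbouring thalamus and septum was 53946 in KO striatum replicate 4 and 33622 in WT striatum replicate 8, while the other striatum libraries lay between 9502 and 16251. The comparisons of KO with WT striatum are also given without KO striatum replicate 4 and WT striatum replicate 5. They are given likewise without KO striatum replicate 4 and WT striatum replicate 8. No fit left out all of these libraries at once, so each reduced fit keeps a WT library that stood apart.

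The 10 genes fell into a set of 6 with very high values and a set of 4 with low ones, and these sets also differed in how much of their sequence occurs in nuclear transcripts. Reads were 75 bases long, so each gene was cut into every possible 75-base window and each window was searched for, on both strands, among annotated transcripts of nuclear genes in GENCODE M21 (build GRCm38). Nuclear DNA outside annotated transcripts was not searched, so a window without a match may still occur there. None of the 883 windows of ND1 and none of the 1070 windows of CYTB had an exact match. Matches were found for 29 of the 1750 windows of ND5 (1.66%), 55 of 964 of ND2 (5.71%), 586 of 1471 of COX1 (39.8%) and 802 of 1304 of ND4 (61.5%). In COX2 the matched windows were 607 of 610, in ATP6 604 of 607, in COX3 709 of 710 and in ND3 268 of 274. Most of the matches came from a row of annotated pseudogenes on chromosome 1, which repeats the stretch from COX1 to ND4 in the same order on the minus strand. The genes lie on the plus strand of chrM at 2751 to 3707 (ND1), 3914 to 4951 (ND2), 5328 to 6872 (COX1), 7013 to 7696 (COX2), 7927 to 8607 (ATP6), 8607 to 9390 (COX3), 9459 to 9806 (ND3), 10167 to 11544 (ND4), 11742 to 13565 (ND5) and 14145 to 15288 (CYTB). All are single-exon coding genes. ATP6 shares 43 bases with ATP8 at its start and 1 base with COX3 at its end.

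The copies are shown because an unaltered copy leaves no base by which a 75-base read could be assigned to one place. The first 60 bases of COX2, ATP6 and COX3 and of their chromosome 1 copies, taken from the GENCODE M21 transcripts, were identical, as were the copies over their whole annotated length (681, 678 and 783 bases). COX2 is printed from chrM:7013-7072 on the plus strand and its copy Gm28661 from chr1:24615506-24615565 on the minus strand.
COX2: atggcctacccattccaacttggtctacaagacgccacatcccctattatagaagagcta
Gm28661: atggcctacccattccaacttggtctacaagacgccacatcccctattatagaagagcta
ATP6 is printed from chrM:7927-7986 and its copy Gm10925 from chr1:24614592-24614651 on the minus strand.
ATP6: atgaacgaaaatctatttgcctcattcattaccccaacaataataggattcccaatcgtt
Gm10925: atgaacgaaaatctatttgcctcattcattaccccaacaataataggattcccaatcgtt
COX3 is printed from chrM:8607-8666 and its copy Gm28437 from chr1:24613912-24613971 on the minus strand.
COX3: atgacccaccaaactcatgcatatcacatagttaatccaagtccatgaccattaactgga
Gm28437: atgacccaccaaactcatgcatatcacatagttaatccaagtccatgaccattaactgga

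The copies of ND3 and COX1 differ from the mitochondrial genes at a few bases, which are in capitals. Gm28438 matches ND3 at 344 of 345 bases, and the single substitution is T3C, counted from 1 at the first base of the gene, with the mitochondrial base first. ND3 is printed from chrM:9459-9518 and Gm28438 from chr1:24613060-24613119 on the minus strand.
ND3: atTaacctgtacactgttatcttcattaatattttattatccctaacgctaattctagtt
Gm28438: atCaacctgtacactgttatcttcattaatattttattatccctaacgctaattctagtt
Gm29216 covers bases 1054 to 1545 of COX1 and matches 486 of 492, with T1056A, C1057T, A1059G, A1060G, C1062A and A1066T, all near its first base. COX1 is printed from chrM:6381-6440 and Gm29216 from chr1:24616138-24616197 on the minus strand.
COX1: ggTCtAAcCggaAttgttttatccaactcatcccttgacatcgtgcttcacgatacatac
Gm29216: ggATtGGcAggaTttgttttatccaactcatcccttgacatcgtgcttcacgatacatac
Gm28439 matches the first 876 bases of ND4 without a difference. How reads that match several places were counted is not given in the sources used here, so the values of COX2, ATP6, COX3 and ND3, and in part those of COX1 and ND4, are uncertain as measures of mitochondrial RNA.

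COX1, which encodes the catalytic subunit of cytochrome c oxidase, had the highest level of the 10 genes, and COX3, a core subunit of the same enzyme, had the lowest. In WT cortex COX1 averaged 300855 ± 20177 normalized counts and COX3 averaged 45.3 ± 6.66 normalized counts (SD, n = 4). The 6 genes ND1, ND2, COX1, ND4, ND5 and CYTB lay between 78265 and 367637 normalized counts in every library. COX2 lay between 588 and 967, ND3 between 126 and 277, ATP6 between 75.8 and 246, and COX3 between 39.1 and 121. These 4 genes together held 928 to 1419 reads per library, which is 0.0908 to 0.121% of the reads on the 10 genes.

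**Figure D1:**
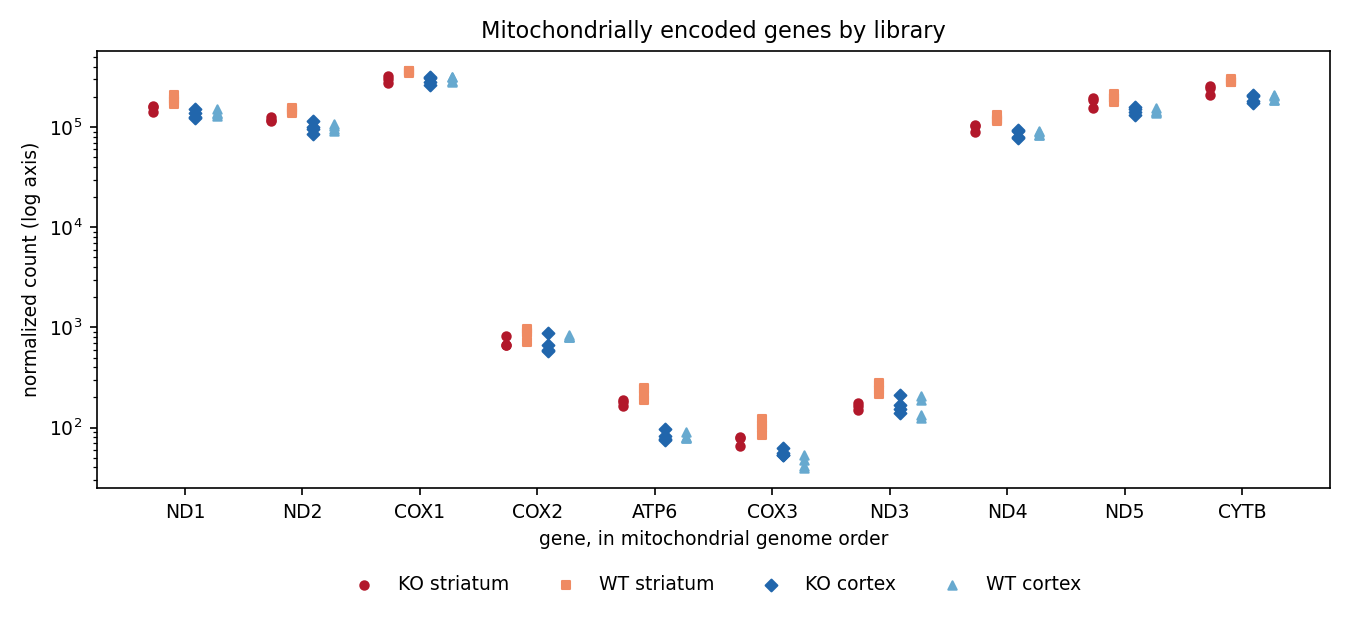
Normalized counts of the 10 mitochondrially encoded genes in each of the 15 libraries, on a log axis, with 1 point per library and the genes in the order of the mitochondrial genome. ND1, ND2, COX1, ND4, ND5 and CYTB lie between 78265 and 367637 in every library, and COX2, ATP6, COX3 and ND3 between 39.1 and 967.

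Per kilobase of gene, the order in WT cortex was COX1 at 194728 ± 13060 normalized counts, CYTB at 172852 ± 11152, ND1 at 145617 ± 9230.1, ND2 at 96562 ± 7099, ND5 at 79338 ± 3892 and ND4 at 63201 ± 2985 (SD, n = 4). Among these, only the neighbours COX1 and CYTB overlapped between libraries. CYTB is the cytochrome b subunit of complex III, and ND1, ND2, ND4 and ND5 are membrane-arm subunits of complex I. COX2 (1188 ± 29.3), ND3 (471 ± 115), ATP6 (121 ± 8.87) and COX3 (57.8 ± 8.50) followed, in normalized counts per kilobase. In WT striatum COX1 (232769 ± 5775) and CYTB (254332 ± 9667) stood in the opposite order per kilobase, and their libraries did not overlap. In KO striatum they averaged 195840 ± 16062 and 207099 ± 21506 (SD, n = 3), and in KO cortex 190824 ± 16087 and 168723 ± 15067 (SD, n = 4).

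The WT cortex levels were also counted per 1000 windows without a match in an annotated nuclear transcript. They were 339950 normalized counts for COX1, 184806 for CYTB, 173489 for ND4, 157820 for ND1, 110266 for ND2 and 84086 for ND5. ND4 stood lowest of the 6 per kilobase, and behind only COX1 and CYTB on this scale. In WT striatum COX1 averaged 359630 normalized counts over 885 unmatched windows, and CYTB 290960 over 1070. COX1 thus stood above CYTB there on this scale, unlike per kilobase. No value on this scale is given for COX2, ATP6, COX3 and ND3, whose unmatched windows lie at the annotated ends of the copies or over the single substitution in ND3. The 3 protein genes outside the set did not all follow the same pattern. ATP8, a small subunit of ATP synthase with no matched window, had 7109 to 13464 normalized counts. ND6, the 1 protein gene of the other strand, also had no matched window. It had only 2377 to 5495 normalized counts, far below the 6 high genes. ND4L, of whose 223 windows 220 were matched, had 0 to 3 reads per library.

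**Figure D2:**
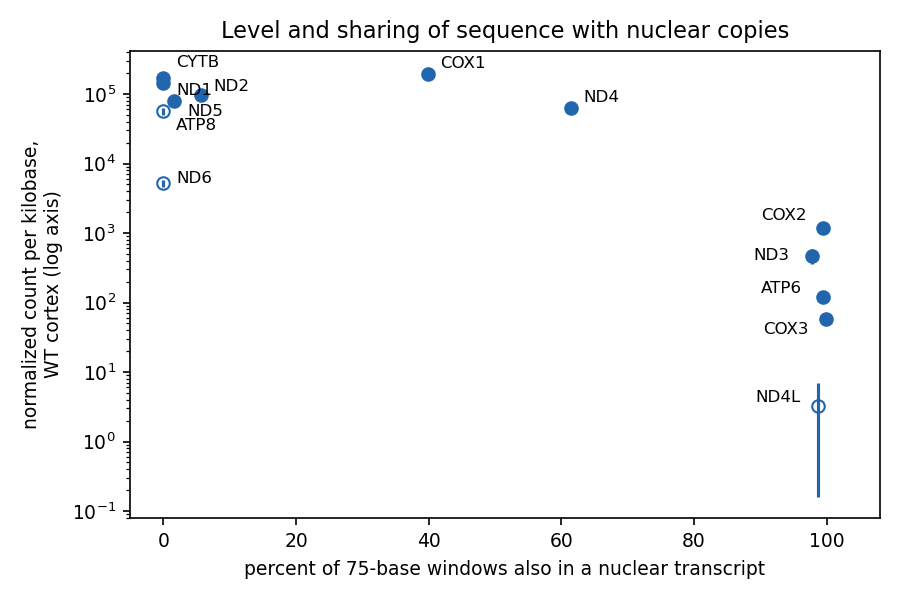
Normalized count per kilobase in WT cortex (log axis, mean with SD, n = 4) against the percent of a gene's 75-base windows that also occur in an annotated nuclear transcript, with filled points for the 10 genes and open points for ATP8, ND6 and ND4L. COX2, ND3, ATP6, COX3 and ND4L, with 97.8 to 99.9% of their windows matched, lie lowest. The lower SD bar of ND4L is shortened to stay on the log axis.

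The rows of the 7 copies held 153 to 339 reads per library in all. Gm28438, the copy of ND3, took most of them, with 157 to 261 normalized counts in KO striatum, 179 to 251 in WT striatum, 96.4 to 148 in KO cortex and 97.9 to 142 in WT cortex. ND3 had similar numbers, with 151 to 175 in KO striatum, 215 to 277 in WT striatum, 140 to 212 in KO cortex and 126 to 207 in WT cortex. The other copies held 1.79 to 33.5 normalized counts per library. Gm10222, the copy of ND4L, was added to the copies after the annotation had been read. The part that these copies play in the low values of COX2, ATP6, COX3 and ND3 was not tested.

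In the striatum the means of all 10 genes were lower in KO than in WT, but 0 of the 10 genes were called by limma, which called 0.0763% of all 17030 genes in this comparison. CYTB, for example, had 256740, 244639 and 209384 normalized counts in the KO striatum libraries, against 306058, 280464, 291661 and 285641 in the WT striatum libraries. Every KO library lay below every WT library. The fitted log2 fold change of CYTB was -0.30 (SE 0.13, limma adjusted p = 0.28). ND4 had 104801, 102987 and 89969 normalized counts in KO striatum, against 131128, 116324, 122223 and 119004 in WT striatum. Here too the groups did not overlap, and the log2 fold change was -0.30 (SE 0.10, limma adjusted p = 0.22).

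ND1 had 161903, 157469 and 142089 normalized counts in KO striatum, against 209088, 184277, 191645 and 171134 in WT striatum. COX1 had 328109, 301065 and 278547 normalized counts in KO striatum, against 366892, 350366, 367637 and 353615 in WT striatum. Neither gene's groups overlapped, and KO means stood at 81.4% and 84.1% of the WT means. ND5, the largest of these subunits, was the member with the smallest difference, with 193696, 187338 and 154505 in KO striatum, against 196296, 197946, 213073 and 178992 in WT striatum. Its groups overlapped, with a log2 fold change of -0.14 (SE 0.12).

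Among the low genes, ND3 gave the largest difference, with 151, 165 and 175 normalized counts in KO striatum, against 268, 215, 238 and 277 in WT striatum. Its groups did not overlap, and its log2 fold change was -0.60 (SE 0.18, limma adjusted p = 0.18). COX3 had 65.7, 81.4 and 79.4 normalized counts in KO striatum, against 121, 107, 98.7 and 84.8 in WT striatum. These groups did not overlap either. The log2 fold change of COX3 was -0.43 (SE 0.16), and those of COX2 and ATP6, whose groups overlapped, were -0.27 (SE 0.13) and -0.30 (SE 0.13). Gm28438, the copy of ND3, overlapped between KO and WT striatum, with a log2 fold change of 0.0017 (SE 0.21).

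Over the set, the limma adjusted p-values ran from 0.18 to 0.59. In 7 of the 10 genes (ND1, ND2, COX1, COX3, ND3, ND4 and CYTB) every KO library lay below every WT library, against 4.12% of all genes. At an unadjusted p under 0.05 there were 7 of 10 genes, against 15.3% of all genes. The median log2 fold change was -0.30, against 0.0079 over all genes. The 10 genes come from 1 precursor and share libraries, so they are not independent observations. edgeR and voom also called 0 of the 10, and DESeq2 called 3, ND1 (adjusted p = 0.047), ND4 (adjusted p = 0.025) and CYTB (adjusted p = 0.041), where it called 2.38% of all genes to which it gave an adjusted p. Without KO striatum replicate 4 and WT striatum replicate 5, limma again called 0 of the 10, and log2 fold changes such as those of CYTB (-0.19), ND4 (-0.20) and ND5 (-0.04) lay nearer to 0, while that of ND3 was -0.61. Without KO striatum replicate 4 and WT striatum replicate 8 the count was 0 as well, with CYTB at -0.22, ND4 at -0.24 and ND5 at -0.09. The log2 fold change stayed negative for each of the 10 genes in all 300 values from the alternative settings. Leaving out a cortex library, changing the filter or fitting only the groups compared cannot alter it. The 300 values are therefore not separate checks.

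**Figure D3:**
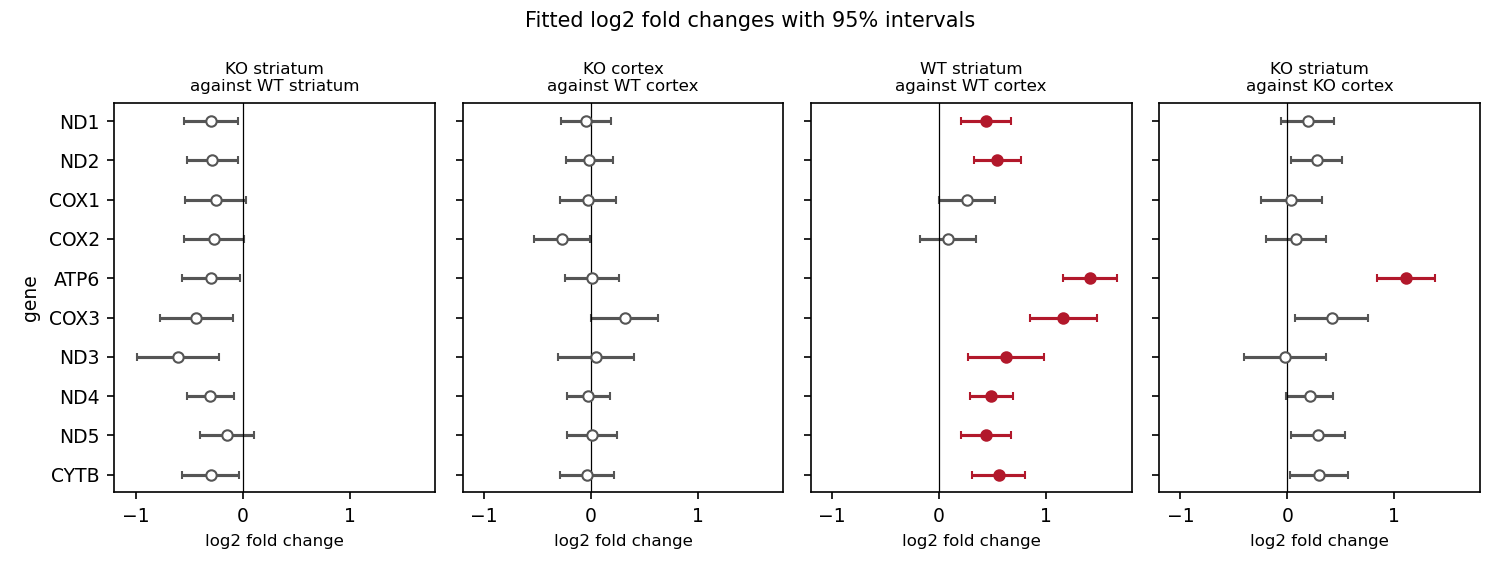
Fitted log2 fold changes of the 10 genes with 95% intervals in 4 comparisons, filled and red where the gene was called and open where it was not. KO against WT values lie below 0 for all 10 genes in striatum and on both sides of 0 in cortex, and 8 genes were called in WT striatum against WT cortex.

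As a share of all counted reads, which does not depend on the scaling of the libraries, the 10 genes took 4.56%, 4.49% and 3.91% in the KO striatum libraries, against 5.22%, 4.88%, 5.06% and 4.79% in the WT striatum libraries. The 95% Wilson intervals were at most 0.0182 points wide and cover counting error only. All KO libraries lay below all WT libraries. The means were 4.32 ± 0.358% in KO striatum (SD, n = 3) and 4.99 ± 0.195% in WT striatum (SD, n = 4), a difference of -0.67 points with a two-sided exact permutation p = 0.029, the smallest this design can give. The difference was -0.46 points without KO striatum replicate 4 (exact permutation p = 0.13) -0.39 points without that library and WT striatum replicate 5 (exact permutation p = 0.10), and -0.53 points without that library and WT striatum replicate 8 (exact permutation p = 0.10). The groups stayed apart in these cases, and none of the designs can reach an exact permutation p of 0.05.

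**Figure D4:**
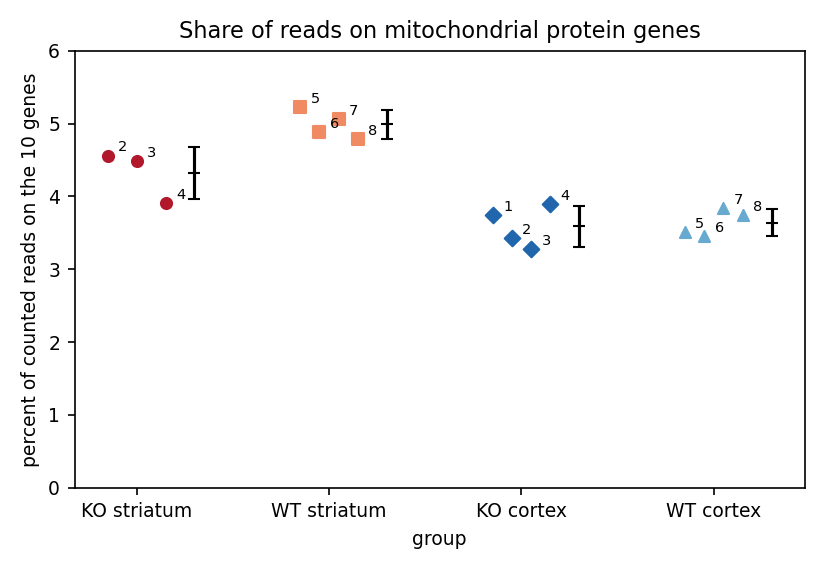
Percent of counted reads on the 10 genes, with 1 numbered point per library and the mean with SD beside each group (n = 3 for KO striatum and 4 for each other group). KO striatum lies at 3.91 to 4.56% and WT striatum at 4.79 to 5.22%, without overlap, while KO cortex and WT cortex overlap.

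Markers of striatal projection neurons were also lower on average in KO striatum, though their summed levels overlapped between KO and WT. Their summed level was 129000, 125553 and 59130 normalized counts in KO striatum replicates 2, 3 and 4, against 238977, 168451, 204834 and 111669 in WT striatum replicates 5, 6, 7 and 8. All 15 of 15 markers were measured, none was at 0, all 15 had a negative log2 fold change (median -0.78) and 0 were called by limma. KO striatum replicate 4 had the lowest value and WT striatum replicate 5 the highest for both the markers and the mitochondrial share. Within each genotype, the library richest in thalamus and septum markers, KO striatum replicate 4 and WT striatum replicate 8, had the lowest mitochondrial share. The 10 oligodendrocyte markers were also all lower in KO (median log2 fold change -0.26, 0 called), with a summed level of 154027 to 315169 in KO striatum against 222781 to 307189 in WT striatum, and so were 9 of 10 microglia markers, at 12789 to 15420 in KO striatum against 14893 to 16913 in WT striatum. Cortical excitatory neuron markers moved the other way. Of 15, 10 were positive, with a summed level of 24799 to 29013 in KO striatum against 22420 to 24635 in WT striatum, and limma called 1 of them, Neurod2, higher in KO (log2 fold change 2.30, limma adjusted p = 0.030). edgeR also called Neurod2 alone, and DESeq2 called 5 higher, Emx1, Neurod2, Neurod6, Slc17a7 and Tbr1. DESeq2 also called the microglia marker P2ry12, lower in KO (log2 fold change -0.39, DESeq2 adjusted p = 0.040). Ependyma markers were positive in 10 of 10 (median 0.44) and choroid plexus markers in 15 of 20 (median 0.26). The lists without a clear direction were astrocyte (4 of 10 positive), endothelium (5 of 10) and thalamus and septum (5 of 10). limma called 0 markers of these lists. Without KO striatum replicate 4 and WT striatum replicate 5, the median log2 fold change was -0.25 for the projection neuron list, -0.54 for the oligodendrocyte list and -0.21 for the microglia list, and the cortical excitatory markers that limma called higher included Tbr1 and Neurod2. Without KO striatum replicate 4 and WT striatum replicate 8, these medians were -0.60, -0.51 and -0.19, and 7 cortical excitatory markers were called higher. limma called 5.11% of all genes in either direction in this setting, and 2.04% without KO striatum replicate 4 and WT striatum replicate 5. Of the thalamus and septum list, Prkcd and Rora were called lower in KO and Trh higher in both settings. The astrocyte marker Aldh1l1 was called lower in KO in both settings (-0.38 and -0.35). Without KO striatum replicate 4 and WT striatum replicate 8, Lef1 (-0.99) of the thalamus and septum list and the projection neuron marker Foxp1 (-0.57) were called lower too. The part of cell composition in the mitochondrial difference was not tested. In these bulk samples, fewer cells of a type and less RNA per cell cannot be told apart.

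In the cortex the 10 genes showed no common direction between KO and WT. CYTB had 205882, 182910, 174037 and 209246 normalized counts in KO cortex, against 187176, 186474, 206286 and 211034 in WT cortex. ND1 had 138141, 125941, 124597 and 151973 in KO cortex, against 137899, 130708, 151692 and 137121 in WT cortex. Both pairs of groups overlapped throughout, with log2 fold changes of -0.04 (SE 0.12) for CYTB and -0.05 (SE 0.11) for ND1. The 95% intervals of the 6 high genes lay within -0.29 and 0.24.

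COX2 and COX3 deviated most, in opposite directions, though both encode core subunits of complex IV. COX2 had 601, 588, 663 and 886 normalized counts in KO cortex, against 843, 804, 804 and 800 in WT cortex. All KO libraries but replicate 4 lay below WT, and the log2 fold change was -0.27 (SE 0.12). COX3 had 55.5, 53.3, 53.7 and 62.5 normalized counts in KO cortex, against 53.7, 40.9, 47.5 and 39.1 in WT cortex. Its log2 fold change was 0.31 (SE 0.15), with overlapping groups. These 2 were the genes at an unadjusted p under 0.05, against 2.51% of all genes, and their adjusted p was 1.0 each by limma.

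limma, edgeR, DESeq2 and voom called 0 of the 10 genes in KO against WT cortex, where limma called 0.00587% of all genes. The groups overlapped in all 10, against 4.02% of genes without overlap. The median log2 fold change was -0.02. The share of reads was 3.59 ± 0.287% in KO cortex and 3.64 ± 0.186% in WT cortex (SD, n = 4 each), a difference of -0.05 points (exact permutation p = 0.71). All 15 striatal projection neuron markers were lower in KO cortex on average (median -0.41, 0 called), and all 20 choroid plexus markers were higher (median 1.1 on the log2 scale, 0 called), with summed levels of 9457 to 17128 in KO cortex against 7051 to 10650 in WT cortex. Ependyma (median 1.07) and endothelium markers (median 0.07) were positive in 10 of 10 each, and microglia markers negative in 8 of 10 (median -0.05). The lists without a clear direction were astrocyte (5 of 10 positive), oligodendrocyte (5 of 10), cortical excitatory neuron (8 of 15) and thalamus and septum (6 of 10). limma called 0 markers of these lists.

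The KO effect in striatum minus that in cortex was negative for all 10 genes, with a median of -0.27 in log2 units, and none passed the test. COX3 gave -0.75 (SE 0.22) and ND3 -0.65 (SE 0.25), and these 2 alone had an unadjusted p under 0.05, against 4.9% of all genes. limma, edgeR, DESeq2 and voom called 0 of the 10, where limma called 0.00587% of all genes. The lowest limma adjusted p was 0.96. An effect in striatum that differs from that in cortex was thus not shown for any of the 10 genes.

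Between tissues, 8 of the 10 genes were called higher in WT striatum than in WT cortex, as were 24.9% of all genes. CYTB had the WT striatum values given above, 280464 to 306058, against 186474 to 211034 normalized counts in WT cortex. The lowest striatum library lay far above the highest cortex library, and the log2 fold change was 0.56 (SE 0.12, limma adjusted p = 0.0011). ND2 had 154807, 143629, 147868 and 137384 normalized counts in WT striatum, against 95662, 92666, 108662 and 103937 in WT cortex, a log2 fold change of 0.54 (SE 0.10, limma adjusted p = 0.00056). ND4, ND1 and ND5 rose by 0.49 (SE 0.09), 0.44 (SE 0.11) and 0.44 (SE 0.11) on the log2 scale.

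ATP6, the proton-channel subunit of ATP synthase, showed the widest tissue gap among the 10 genes. It had 245, 189, 206 and 246 normalized counts in WT striatum, against 79.1, 79.9, 78.6 and 91.2 in WT cortex. The groups were far apart, and the log2 fold change was 1.41 (SE 0.12, limma adjusted p = 3.2e-07), which is 2.66-fold. COX3 followed at 1.16 (SE 0.15, limma adjusted p = 1.6e-05) and ND3 at 0.63 (SE 0.17, limma adjusted p = 0.0059). These folds rest on 184 to 232 reads per library for ATP6 and 80 to 106 for COX3 in WT striatum, against 84 to 91 and 39 to 57 in WT cortex. The values of ATP6, COX3 and ND3 are uncertain as measures of mitochondrial RNA, as described above. The copies of 2 of these genes were also higher in WT striatum, Gm10925 of ATP6 by 0.65 (SE 0.23) and Gm28438 of ND3 by 0.88 (SE 0.19) on the log2 scale, as were Gm29216 of COX1 by 1.03 (SE 0.31) and Gm10222 of ND4L by 1.09 (SE 0.37). ATP8, which overlaps the start of ATP6 and had no matched window, was not called in this comparison.

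COX1 and COX2 were the 2 genes not called. COX1 had 350366 to 367637 normalized counts in WT striatum, against 280632 to 319264 in WT cortex, without overlap, and its log2 fold change of 0.26 (SE 0.12) had a limma adjusted p = 0.092. It was called in 6 of 30 alternative settings. COX2 had 967, 718, 885 and 897 normalized counts in WT striatum, against 843, 804, 804 and 800 in WT cortex, and its groups overlapped, with a log2 fold change of 0.08 (SE 0.12).

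In 9 of the 10 genes every WT striatum library lay above every WT cortex library, against 23% of all genes. Without WT striatum replicate 5 and KO striatum replicate 4, the count of calls was again 8. The median log2 fold change was 0.52, against 0.0058 over all genes. The share of reads was 4.99 ± 0.195% in WT striatum and 3.64 ± 0.186% in WT cortex (SD, n = 4 each), 1.35 points higher in striatum (exact permutation p = 0.029, the smallest possible). Markers of several cell types differ between these tissues. All 10 oligodendrocyte markers were called higher in WT striatum, with a summed level of 222781 to 307189 against 58215 to 123087 in WT cortex. All 15 striatal projection neuron markers were called higher too. Of the 15 cortical excitatory neuron markers, 11 were called lower and 3 higher. The part of these cell types in the mitochondrial difference was not tested.

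In KO mice ATP6 alone of the 10 genes was called in the same tissue comparison, where 18.4% of all genes were called higher. The values of ATP6 are among those described above as uncertain measures of mitochondrial RNA. Of the 6 high genes limma called 0 here and 5 in WT mice, where 24.9% of all genes were called higher. ATP6 had 191, 166 and 182 normalized counts in KO striatum, against 81.9, 75.8, 76.9 and 97.0 in KO cortex, without overlap. Its log2 fold change was 1.11 (SE 0.13, limma adjusted p = 1.4e-05). CYTB had 209384 to 256740 normalized counts in KO striatum against 174037 to 209246 in KO cortex, barely without overlap, with a log2 fold change of 0.29 (SE 0.13, limma adjusted p = 0.079). COX3 gave 0.41 (SE 0.16, limma adjusted p = 0.052), ND5 0.29 (SE 0.12), ND2 0.27 (SE 0.11), ND4 0.21 (SE 0.10) and ND1 0.19 (SE 0.12), while COX2, COX1 and ND3 lay at 0.08, 0.04 and -0.02.

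In 4 of the 10 genes (ND2, ATP6, COX3 and CYTB) every KO striatum library lay above every KO cortex library, against 20.1% of all genes. The median log2 fold change was 0.24. The share of reads was 4.32 ± 0.358% in KO striatum (SD, n = 3) and 3.59 ± 0.287% in KO cortex (SD, n = 4), 0.73 points higher in striatum (exact permutation p = 0.029, the smallest possible). All 10 oligodendrocyte markers and 14 of 15 striatal projection neuron markers were called higher here too. Of the 15 cortical excitatory neuron markers, 11 were called lower and 2 higher. The part of these cell types was not tested. With all 30 genes of the mitochondrial genome in the table counted, the groups overlapped (exact permutation p = 0.086). The count of calls depended on the method: edgeR and DESeq2 called 5 of the 10, and scaling by all counted reads gave 6. It was 3 without KO striatum replicate 4, and 2 without KO striatum replicate 2, KO cortex replicate 4, WT cortex replicate 5, WT striatum replicate 5 or WT striatum replicate 8. The KO and WT tissue comparisons differ by the same quantity as the KO effects in striatum and cortex, for which no gene passed the test.

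The make-up of the mitochondrial reads differed between tissues for several genes. COX1 took 26.9 to 28.2% of the reads on the 10 genes in KO striatum and 26.9 to 28.4% in WT striatum, against 30.4 to 31.5% in KO cortex and 30.7 to 31.5% in WT cortex. Its share was lower in every striatum library than in any cortex library. CYTB took 21.7 ± 0.522% in KO striatum (SD, n = 3) and 22.3 ± 0.472% in WT striatum, against 20.2 ± 0.305% in KO cortex and 20.4 ± 0.426% in WT cortex (SD, n = 4 each). ATP6 took 0.0148 to 0.0183% in KO striatum and 0.0148 to 0.0197% in WT striatum, against 0.0082 to 0.0093% in KO cortex and 0.0076 to 0.0091% in WT cortex. Within each genotype COX1 was lower and CYTB and ATP6 were higher in striatum without overlap (exact permutation p = 0.029 each, 0.11 after Benjamini-Hochberg adjustment over 40 tests). In the comparisons of KO with WT the groups overlapped for each of the 10 genes. ND5 had the largest shift among the 6 high genes, with a mean share of 16.3% in KO striatum against 15.1% in WT striatum (exact permutation p = 0.11).

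Other products of the mitochondrial genome were examined beside the 10 genes. The ribosomal RNA mt-Rnr1 averaged 77020 ± 9445 normalized counts in KO striatum (SD, n = 3) and 105231 ± 14148 in WT striatum (SD, n = 4), without overlap, a log2 fold change of -0.45 (SE 0.13, limma adjusted p = 0.18). mt-Rnr2 gave -0.37 (SE 0.13) and did not overlap either. DESeq2 called both lower (adjusted p = 0.021 for mt-Rnr1 and 0.028 for mt-Rnr2). Without KO striatum replicate 4 and WT striatum replicate 5 they gave -0.32 and -0.25, and without KO striatum replicate 4 and WT striatum replicate 8 they gave -0.29 and -0.27, with neither called by limma. ND6, the complex I gene of the other strand, was higher in striatum in both genotypes, by 0.51 (SE 0.11, limma adjusted p = 0.0022) in KO and 0.75 (SE 0.10, limma adjusted p = 3.3e-05) in WT. ND6 overlaps ND5 by 14 bases on the opposite strand and the strand setting of the counting is not given in the sources used here, so reads of the 2 strands cannot be told apart there. ATP8 was not called in any comparison, with 7109 to 13464 normalized counts in KO striatum, 9199 to 12929 in WT striatum, 9418 to 11376 in KO cortex and 9478 to 12789 in WT cortex.

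Nuclear genes of complexes I, III, IV and V, whose products assemble with the mitochondrially encoded subunits, were compared next. All 71 of 71 listed genes were tested. In KO against WT striatum 0 of 71 were called by limma, against 0.0763% of all genes, 39 had an unadjusted p under 0.05, against 15.3% of all genes, and all 71 had a negative log2 fold change, with a median of -0.19 and a range of -0.34 to -0.04. DESeq2 called 3 of them lower, Ndufa7, Ndufs3 and Cox5b, and edgeR 0. Over the alternative settings 67 to 71 were negative, and the median ran from -0.27 without KO striatum replicate 4 to -0.10 without KO striatum replicate 3. limma called 10 of 71 lower without KO striatum replicate 4, 2 (Ndufs3 and Atp5c1) without that library and WT striatum replicate 5, and 7 without that library and WT striatum replicate 8. In these settings 3.05%, 2.04% and 5.11% of all genes were called in either direction. In KO against WT cortex 0 of 71 were called by limma, edgeR and DESeq2, 9 had an unadjusted p under 0.05, against 2.51% of all genes, and 69 of 71 were negative with a median of -0.12, where the 10 mitochondrial genes had a median of -0.02.

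In WT striatum against WT cortex 26 of the 71 nuclear genes were higher and 1 was lower, with a median log2 fold change of 0.16, against 24.9% and 25.7% of all genes called higher and lower. Among the complex I genes 18 of 36 rose, among them Ndufs4 by 0.41 (SE 0.07) and Ndufv2, part of the electron input module, by 0.34 (SE 0.06). Uqcrb of complex III rose by 0.45 (SE 0.08) and Atp5g3, a gene of the rotor ring of ATP synthase, by 0.35 (SE 0.06). Complex IV gave 1 of 11 higher, Cox7c at 0.33 (SE 0.13), and 1 lower, Cox8a at -0.29 (SE 0.09). In KO striatum against KO cortex 9 of 71 were higher and 1 was lower, with a median of 0.09, where 18.4% of all genes were called higher and 19.5% lower. Of the 4 genes of complex II, which has no mitochondrially encoded subunit, Sdha and Sdhc were higher in striatum in both genotypes, by 0.15 and 0.29 in KO and by 0.18 and 0.34 in WT.

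**Figure D5:**
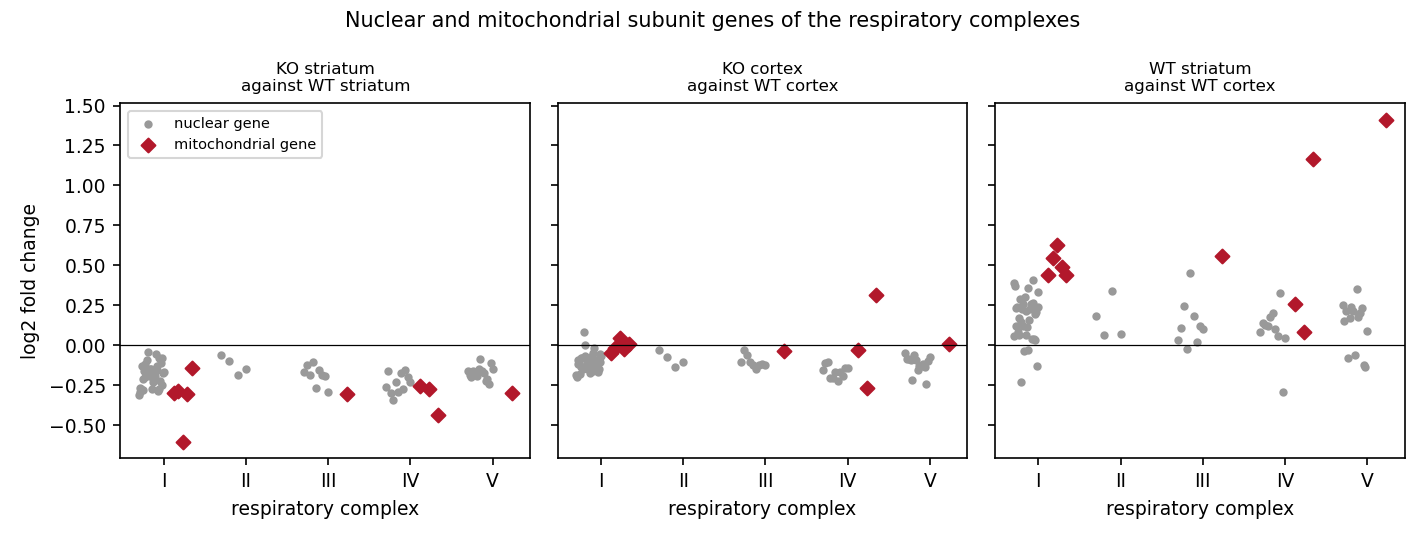
Log2 fold changes of nuclear (grey points) and mitochondrial (red diamonds) subunit genes by respiratory complex in 3 comparisons. All nuclear genes of complexes I, III, IV and V lie below 0 in KO against WT striatum, between -0.34 and -0.04, and in WT striatum against WT cortex ATP6 (1.41) and COX3 (1.16) lie above every nuclear gene shown. The values of ATP6 and COX3 are uncertain as measures of mitochondrial RNA.

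Genes that handle mitochondrial DNA and RNA were counted beside the same shares, 24.9% of all genes called higher and 25.7% lower in WT striatum than in WT cortex, and 18.4% and 19.5% in KO striatum against KO cortex. Of 24 genes for transcription and RNA processing, 8 were higher and 4 lower in WT striatum. Mterf2, of the mitochondrial termination factor family, averaged 476 ± 40.7 normalized counts in WT striatum and 284 ± 15.8 in WT cortex (SD, n = 4 each), a log2 fold change of 0.74 (SE 0.08). Grsf1, a protein of mitochondrial RNA granules, rose by 0.39 (SE 0.08), while Fastk fell by 0.35 (SE 0.07) and Elac2, which cuts the 3′ ends of tRNAs in the precursor, fell by 0.32 (SE 0.06). In KO striatum against KO cortex 5 were higher and 3 lower, with Lrpprc, which stabilises mitochondrial mRNAs, at 0.32 (SE 0.07).

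Counts in the smaller lists are few and are set against the same shares of all genes (24.9% higher and 25.7% lower in WT). Of the mitochondrial DNA maintenance genes 10 were tested, and 2 were higher (Rrm2b at 0.40 and Dguok at 0.43, both of nucleotide supply) and 1 lower in WT striatum, Polg, the DNA polymerase of mitochondria, at -0.39 (SE 0.07). In KO striatum against KO cortex Rrm2b (0.22) and Polg2 (0.48) were higher and Polg (-0.43) was lower. Of 11 translation factors, Gfm2 alone was called, lower in striatum in both genotypes. Of 9 regulators of mitochondrial gene programmes, Esrrg, Gabpa and Yy1 were higher and Ppara was lower in WT striatum, with Esrrg, a nuclear receptor, at 0.97 (SE 0.17). In KO striatum against KO cortex Esrrg (0.84) and Gabpa (0.29) were higher.

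Between KO and WT, limma called 0 genes of these 4 lists in striatum and in cortex. At an unadjusted p under 0.05 there were 2 of 24 RNA factors, 0 of 10 maintenance genes, 0 of 11 translation factors and 1 of 9 regulators in striatum, against 15.3% of all genes. In cortex the counts were 0, 0, 0 and 1, against 2.51% of all genes. edgeR also called 0 genes of these lists, and DESeq2 called 1, Mterf2, lower in KO striatum at -0.34 (DESeq2 adjusted p = 0.035). Without KO striatum replicate 4 and WT striatum replicate 5 limma again called 0, and without KO striatum replicate 4 and WT striatum replicate 8 it called 1, the nuclear receptor Esrra, lower in KO at -0.50 (limma adjusted p = 0.048).

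The genes whose pattern over the 15 libraries was most like the mean of the 10 were 1110059G10Rik, Nus1, Gpm6b, Pfn4, Rps12, Ino80c, Smim8 and Sumo3. Likeness was the root mean square difference of log2 deviations from each gene's own mean, and it ran from 0.0873 for 1110059G10Rik to 0.0989 for Sumo3, against a median of 0.33 over the 12287 genes ranked. ND2 (0.0487), CYTB (0.0567) and ND4 (0.0632) lay closest to the mean they contribute to, and ATP6 (0.419), COX3 (0.258) and COX2 (0.237) lay farthest. Against the mean of the 6 high genes instead, the 8 most alike were Spg21, Rpl35a, Mrpl52, Atl2, Rps27, Coa5, Orc5 and Rps12. They lay at 0.0706 to 0.0824, and Rps12 alone is on both lists.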

How the data were processed

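Total RNA (800 ng) had been made into NEBNext Ultra libraries and read as single ends of 75 bases, per the labels' protocols. The deposited table holds a normalized count per gene and library, a signal in which the authors divided each library's read counts by 1 factor. Per the submitters' processing notes, the tools were HTSeq 0.6.0, DESeq2 1.12.4, TopHat2 2.1.1, cutadapt 1.1 and FastQC 0.11.5, named without roles, and the build was GRCm38. The annotation release, the strand setting and the treatment of reads matching several places are not given in the sources used here.

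Whole reads were recovered from the steps of each library's deposited signal, and 100% of values lay within 0.001 of a whole read. Genes with at least 10 normalized counts in at least 3 libraries were tested with limma 3.58.1 in R 4.3.3 (trended empirical Bayes) on log2(normalized count + 1), all 15 libraries in 1 fit of 4 group means with 11 residual degrees of freedom. p-values were adjusted by Benjamini-Hochberg over all genes tested, and a gene with an adjusted p under 0.05 was called. Fold changes are on the log2(value + 1) scale and are understated for low genes. Because the labels do not say that libraries came from separate animals, a p-value covers the spread among the libraries alone, which may be technical. Shares of counted reads were compared by two-sided exact permutation tests. edgeR 4.0.16, DESeq2 1.42.0 and voom were run on the recovered counts as alternatives, with other pseudocounts (0.5 and 10), filters and scalings, and with libraries left out. The code was tested on simulated data.

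Positions and sequences came from GENCODE M21. The members, the gene lists and the cell type markers were chosen with earlier results of these data known. All 10 members are named, with up to 4 called genes of each other list by smallest p, and the 8 genes most alike to each mean used. Genes that were called by DESeq2 alone or only with libraries left out, and Neurod2, were named after their values had been seen. Tables were handled in Python 3.11.15 with pandas 2.3.3 and numpy 2.4.6.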

Additional observations from a re-analysis of the deposited data

Results flagged for a closer look

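In WT cortex COX2 had 842.8 normalized counts in replicate 5, while the other 3 libraries lay between 800.09 and 804.4. ATP6 had 91.24 normalized counts in WT cortex replicate 8, while the other 3 lay between 78.6 and 79.9. In both cases the gap to the nearest library, as a part of the group's range, passed Dixon's 95% critical value of 0.829 for 4 samples. These were 2 of 33 groups examined, and chance gives such a result in about 1 in 20 groups.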

How the results depend on the processing

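The counts of genes called in KO against WT cortex and for the difference of KO effects (0 each) were the same under each alternative run. In WT striatum against WT cortex the count was 8, and 9 with the filter of 50 in 4 libraries, scaling by reads outside mitochondrial genes, edgeR, DESeq2, voom or array weights. Fitting only the groups compared does not alter the difference of effects, which uses all 4 groups. In KO against WT striatum the count was 0 except with DESeq2, which gave 3, and leaving out any 1 library gave 0. In KO striatum against KO cortex the count was 1, against 2 with a pseudocount of 10, 4 with a filter of 50 in 4 libraries or with voom, 3 with array weights, 5 with edgeR or DESeq2, and 6 when scaled by all counted reads or by reads outside mitochondrial genes. It ran from 1 to 3 on leaving out 1 library, and was 4 without KO striatum replicate 4 and either WT striatum replicate 5 or 8. The cause was not tested. The share of reads in KO minus WT striatum (-0.67 points) ran from -0.79 to -0.46 with 1 library left out, and was -0.39 without KO striatum replicate 4 and WT striatum replicate 5, and -0.53 without KO striatum replicate 4 and WT striatum replicate 8. In KO striatum minus KO cortex (0.73 points) it ran from 0.61 to 0.94 with 1 library left out, was 0.94 without either pair, and 0.81 with all genes of the mitochondrial genome. With fewer libraries the exact permutation test cannot pass 0.05 in these, so this says nothing of stability. Signs of uncalled log2 fold changes turned in 24 of 300 values in KO against WT cortex, 15 of 290 for the difference of effects, 7 of 300 in KO striatum against KO cortex and 1 of 300 in WT striatum against WT cortex. No called value changed sign. Settings that change only the filter, or leave out a library of a group not compared, cannot alter a log2 fold change.

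Libraries of the 2 tissues share replicate numbers. Same-numbered libraries correlated at 0.0037 to 0.14 in their deviations from the group means, not all above 0.1. Within their genotype, 6 of 7 correlated best with their own number. The labels do not say that a number marks 1 animal, so the main fit did not pair the libraries, though they may be pairs. The exact permutation tests between tissues were not paired either. With the replicate block the counts of called genes were 0, 0, 0, 8 and 1, the same as without it.

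Depth limits COX3, with 39 to 106 reads per library, and ATP6, with 81 to 232.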
